A study of Homo sapiens with 9 samples.

Results

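DNA transposon subfamilies were measured in total RNA of HAP1 cells that carried or lacked MATR3, the gene of the nuclear matrix protein matrin 3. They are the repeat rows of the count table whose class field reads DNA, and they number 230 of 1111 repeat rows and of 22114 rows in all. Rows of the uncertain class DNA? were not taken. HAP1 is a near-haploid line that arose from KBM-7 cells of a chronic myeloid leukaemia. There were 5 wild-type (WT) libraries, 3 of clone 1 and 2 of clone 7, and 4 MATR3 knockout (KO) libraries, 2 each of clones 1 and 5. All were grown in the same medium and no treatment was given. Each knockout line is 1 clone, and the WT controls were bought from the same supplier in different batches. Whether a clone's libraries are separate cultures is not stated, so the spread between libraries of a clone may be only technical. Each p-value takes libraries, not clones, as the independent units. MATR3 RNA was at 219 CPM (counts per 1e+06 counts, after TMM scaling) in WT and 44.4 CPM in KO libraries (log2 difference -2.30, edgeR adjusted p = 2.03e-09).

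DNA transposons move by cut and paste: a transposase binds the inverted repeats at the ends of an element, cuts it out and inserts it elsewhere. In the human genome they are fossils that no longer move, and most copies are short, non-autonomous derivatives. The hAT group (Charlie, Tip100, Blackjack) and the Tc1/mariner group (Tigger, Mariner, Tc2) make up most of them. Many copies lie within introns and untranslated regions, so their reads can come from the host transcript. The table sums all copies of a subfamily, so a value names no locus, and a level is not corrected for the number or length of copies. A high level therefore does not mean that one copy is strongly transcribed.

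Sequences of 3 members can be read from microRNA genes that arose from their copies, and these are shown because they make the inverted-repeat structure visible. MADE1, a miniature derivative of the mariner element HSMAR1, gave rise to the MIR548 family. MARNA, an older mariner element, contains MIR340, and MER5A1, a short hAT-Charlie element, contains MIR544A. The hairpins below are from RefSeq (GRCh38.p14), 5′ to 3′, with the bases that RNAfold paired in capitals. They lie at chrX:95063141-95063226 (minus strand), chr9:132945707-132945771 (plus), chr5:180015303-180015397 (minus) and chr14:101048658-101048748 (plus).
MIR548M: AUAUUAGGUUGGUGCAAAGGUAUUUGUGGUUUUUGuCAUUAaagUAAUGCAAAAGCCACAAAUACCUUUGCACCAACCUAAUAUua
MIR548AW: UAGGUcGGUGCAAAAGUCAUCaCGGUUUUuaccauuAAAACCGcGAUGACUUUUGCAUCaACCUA
MIR340: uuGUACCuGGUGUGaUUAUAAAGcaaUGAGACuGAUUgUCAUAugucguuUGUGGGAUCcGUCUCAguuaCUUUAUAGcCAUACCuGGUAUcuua
MIR544A: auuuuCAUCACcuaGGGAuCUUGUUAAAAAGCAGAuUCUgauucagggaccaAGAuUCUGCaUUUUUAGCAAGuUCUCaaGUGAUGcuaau
In MIR548M 80 of 86 bases were paired, against 54 of 65 in MIR548AW, 68 of 95 in MIR340 and 58 of 91 in MIR544A. The MIR548M hairpin is almost a perfect palindrome. The other MADE1 hairpin, MIR548AW, and those of MARNA and MER5A1 are less so.

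The same repeat marks a host gene. SETMAR joins a histone methyltransferase domain to the transposase of an HSMAR1 copy. The first 30 bases of the MIR548M hairpin were compared with SETMAR and 3000 bases on either side. The best match, identical at 24 of 30 bases, lay on the minus strand at chr3:4317296-4317325 (hg38), 30 bases past the end of the last exon (chr3:4316212-4317265), and the next best match had 18 identical bases. Identical bases are in capitals, with the hairpin written as DNA.
MIR548M start: ATATTaGGTTGGTGCAAAggTAttTGtGGT
SETMAR end: ATATTgGGTTGGTGCAAAacTAacTGcGGT
The match takes in part of the terminal inverted repeat that the mariner transposase recognises. Where that repeat begins was not checked, as no consensus sequence was used.

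A library held between 16.1 and 34.4 times 1e+06 counts. DNA transposons took 1.28, 0.901 and 0.945% of all counts in WT clone 1 replicates 1 to 3, and 0.795 and 0.717% in WT clone 7. They took 0.785 and 0.797% in KO clone 1 and 1.04 and 0.864% in KO clone 5. The KO libraries thus lay inside the WT range: the share was 0.928 ± 0.216% in WT (SD, n = 5) and 0.872 ± 0.119% in KO (n = 4). WT clone 1 replicate 1 stood apart, with 14.0% of its counts in repeats of any class against 7.90 to 11.2% in the other libraries. Without it the WT share was 0.840 ± 0.103%, below the KO mean, so the direction of the difference in share rested on 1 library.

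**Figure D1:**
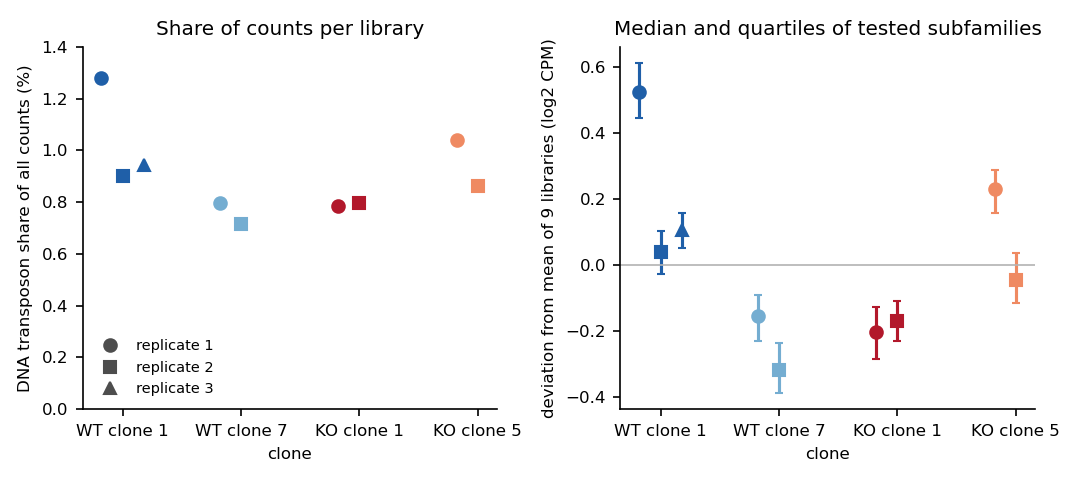
The left plot shows the percent of all counts in DNA transposon rows for each library, by clone and replicate. The right plot shows the median (point) and quartiles (bars) of 223 subfamilies as the deviation of their log2 CPM from the mean over 9 libraries. WT clone 1 replicate 1 is highest at 1.28% and WT clone 7 replicate 2 lowest at 0.717%, and both KO clones lie between them.

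The subfamilies rose and fell together from library to library. The first principal component of their log2 CPM held 76.9% of the variance, and 203 of 223 tested members had their highest level in WT clone 1 replicate 1. The correlation of a member with the sum of all other members over the 9 libraries had a median of 0.947 and was above 0.8 for 181 members. These libraries share their scaling, so the values describe the table and are given with no test. The LINE share moved likewise, from 2.20% in WT clone 7 replicate 2 to 3.95% in WT clone 1 replicate 1. As a share of repeat counts, DNA transposons varied less: 9.09 ± 0.227% in WT and 8.72 ± 0.505% in KO libraries, with overlapping ranges.

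The class was dominated by a pair of families. The hAT-Charlie rows (73 subfamilies) held 53.4% of DNA transposon counts on average and TcMar-Tigger (63 subfamilies) held 33.7%. hAT-Tip100 (35 subfamilies) followed with 4.88%, hAT-Blackjack (8) with 2.13% and TcMar-Mariner (5) with 1.84%. The 10 most abundant subfamilies held 36.4% of the counts, and the median member stood at 16.4 CPM. The highest in each of the leading families were MER5A (557 ± 124 CPM in WT, 528 ± 61.7 in KO) and MER20 (422 ± 86.6 and 405 ± 47.8) for hAT-Charlie. For TcMar-Tigger they were Tigger1 (509 to 949 CPM over WT and 535 to 741 over KO libraries) and MER2 (219 ± 55.3 and 205 ± 32.6). In each of these 4 the KO libraries overlapped the WT libraries.

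Whether loss of MATR3 changed the RNA of these elements was asked with edgeR's quasi-likelihood test on all genes and repeats at once. Of 230 members, 223 passed the filter on low counts, and the 7 that did not had 50 to 88 counts over all libraries. No subfamily rose and 2 fell, Charlie12 and MamRep137 of the TcMar family. That is 0.897% of the members tested, against 22.1% of all 18829 rows, of which 11.3% fell and 10.8% rose. Few calls were not particular to this class: 1.85% of LINE, 1.75% of SINE, 5.17% of LTR and 3.61% of all repeat rows were called. Among genes 23.2% were. The median standard error was also larger for the members (0.171) than for genes (0.103). At an unadjusted p below 0.05 the members were 8 lower and 0 higher, or 3.59%, against 34.3% of all rows. The 2 calls were lost when replicate number was a block (0 lower, 0 higher). The authors' deposited table called 3 lower and 0 higher, 1 of them among the 2 called here (Charlie12) and the others MER63D and MER135. In no member did all KO libraries lie on one side of all WT libraries, whereas they lay below in 11.3% and above in 10.9% of all rows. The count of falls was 0 on leaving out any 1 of WT clone 1 replicates 1, 2 and 3, KO clone 1 replicates 1 and 2 and KO clone 5 replicate 2, and 5 without KO clone 5 replicate 1.

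Charlie12, a hAT-Charlie element, was measured at 2.65, 2.53 and 2.13 CPM in WT clone 1 and at 2.12 and 1.68 CPM in WT clone 7. In KO clone 1 it was at 1.16 and 1.36 CPM, and in KO clone 5 at 1.90 and 1.31 CPM. The highest KO library lay above the lowest WT library, so the groups overlapped by 1 library each. The log2 difference was -0.63 (SE 0.20, edgeR adjusted p = 0.0406).

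MamRep137 is listed under both TcMar and TcMar-Tigger, and only the rarer TcMar row was called. Its 5 WT libraries ran from 2.91 to 4.07 CPM with a median of 3.25, and the KO libraries were at 2.15, 2.42, 3.03 and 2.07 CPM. KO clone 5 replicate 1 was the one that reached into the WT range. The log2 difference was -0.50 (SE 0.16, edgeR adjusted p = 0.0490). The TcMar-Tigger row of the same name, at 56.1 CPM on average, differed by -0.05 (adjusted p = 0.858). MER96B and MamRep4096 are also listed under 2 families each.

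Given the spread between libraries, the difference between these KO and WT libraries was bounded for most members. The 95% interval of the log2 difference lay within 2-fold either way for 213 of 223 members and within 1.5-fold for 151. These intervals come from a fit with genotype only, so differences between clones enter them as spread between libraries. They count the libraries of a clone as independent, so they do not bound the effect of MATR3 loss. No member differed by 1 or more on the log2 scale, and 6 differed by more than 0.5. The largest was FordPrefect (0.90, adjusted p = 0.319). The median log2 difference was -0.11 for DNA transposons, with 84.3% of members below 0, beside -0.13 for LINE, -0.10 for LTR, 0.08 for SINE and -0.01 for all rows. Without WT clone 1 replicate 1 the median of the members was 0.04, and without the whole of WT clone 1 it was 0.20, so its direction changed with that clone.

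**Figure D2:**
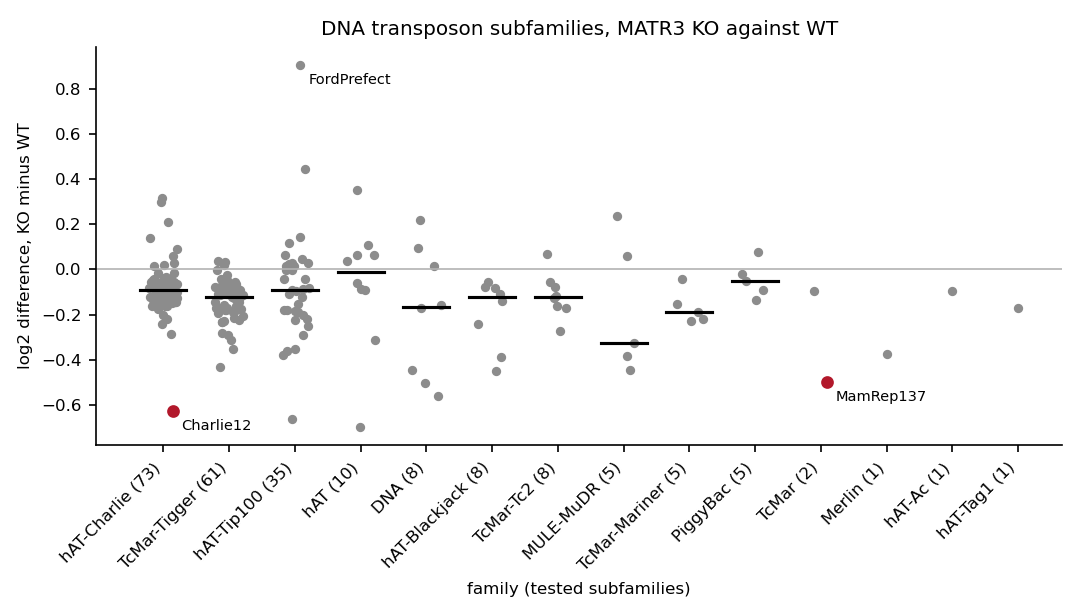
Each point is a tested DNA transposon subfamily, placed by family (number tested in brackets) at its log2 difference between KO and WT libraries. Red points passed an adjusted p below 0.05 (Charlie12 and MamRep137), and black lines are medians of families with 3 or more members. Most points of hAT-Charlie, TcMar-Tigger and hAT-Tip100 lie a little below 0, and FordPrefect is the highest at 0.90.

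Families differed little from each other. In hAT-Charlie 64 of 73 members were below 0 (median -0.09, 1 called lower). TcMar-Tigger had 58 of 61 below 0 (median -0.12, none called) and hAT-Tip100 24 of 35 (median -0.09, none called). All 8 hAT-Blackjack members and all 5 TcMar-Mariner members were below 0, with medians of -0.12 and -0.19 and none called. The hAT family without a subgroup had 5 of 10 below 0 and a median of -0.01. Medians were -0.12 in TcMar-Tc2 (8 tested), -0.05 in PiggyBac (5 tested), -0.17 in the unassigned family DNA (8 tested) and -0.33 in MULE-MuDR (5 tested). For MULE-MuDR, the summed level was nonetheless 31.3 ± 7.97 CPM in WT and 34.3 ± 3.98 in KO libraries, with Ricksha_c as its most abundant member. As a share of DNA transposon counts, MULE-MuDR made up 0.337 ± 0.0270% in WT and 0.394 ± 0.0122% in KO libraries. TcMar-Mariner made up 1.88 ± 0.0431% in WT and 1.79 ± 0.0564% in KO libraries. Of 15 families compared, these 2 had shares that did not overlap between genotypes, the first higher and the second lower in KO, and no test was made. For TcMar-Mariner the highest KO library, at 1.830%, lay just below the lowest WT library, at 1.832%. Of the single repeat rows, fitted apart from genes, 10.6% did not overlap. That figure is for single rows scaled over all repeats, so it is not the same measure as a family's share. The MULE-MuDR sum includes Ricksha_c and is not separate from the result for that member below.

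Members of the smaller families gave the same picture. Among hAT elements, MER53 was at 39.8 ± 7.97 CPM in WT and 38.2 ± 4.93 in KO, and MamRep38 at 26.4 ± 3.64 and 28.4 ± 3.30. MER94 (55.7 ± 13.0 and 51.6 ± 8.85) and MER81 (38.3 ± 9.26 and 36.8 ± 4.27) led hAT-Blackjack, and MamTip2 (53.2 ± 13.4 and 46.2 ± 5.20) and MER91A (45.9 ± 8.22 and 46.7 ± 4.72) led hAT-Tip100. All of these groups overlapped and none was called. PiggyBac was led by Looper (23.8 ± 7.10 and 22.3 ± 5.21) and MER85 (16.4 ± 3.37 and 16.2 ± 2.02), and TcMar-Tc2 by MER104 (31.7 ± 7.51 and 28.1 ± 4.56) and Kanga2_a (26.5 ± 6.30 and 25.1 ± 4.91). OldhAT1, the only hAT-Ac row, was at 55.3 ± 11.2 and 51.7 ± 7.17 CPM. The sparse rows Merlin1_HS (2.23 ± 0.879 and 1.69 ± 0.253), UCON107 of hAT-Tag1 (1.68 ± 0.607 and 1.47 ± 0.325), DNA1_Mam of TcMar (2.79 ± 0.839 and 2.60 ± 0.336), Ricksha_0 (2.65 ± 0.744 and 2.11 ± 0.579) and MER126 (4.38 ± 1.19 and 4.74 ± 1.85) likewise overlapped. MER132, the only TcMar-Pogo row, had 50 counts in all and was not tested.

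The mariner group holds HSMAR1, MADE1 and MARNA, named above as sources of SETMAR and of microRNAs. HSMAR1 was at 9.62, 6.46 and 8.27 CPM in WT clone 1, 5.98 and 5.77 in WT clone 7, 5.81 and 4.21 in KO clone 1 and 8.54 and 6.93 in KO clone 5. MADE1 was at 62.2, 43.8 and 44.7 CPM in WT clone 1, 39.8 and 32.6 in WT clone 7, 32.0 and 36.1 in KO clone 1 and 49.4 and 43.1 in KO clone 5. In both the groups overlapped, with KO clone 5 above KO clone 1. Their log2 differences were -0.19 (95% interval -0.65 to 0.27, edgeR adjusted p = 0.581) and -0.15 (-0.52 to 0.22, adjusted p = 0.581). MARNA, at 62.4 ± 13.3 CPM in WT and 53.3 ± 8.26 in KO, differed by -0.23 (adjusted p = 0.296). Outside that group MER5A1, the hAT-Charlie source of MIR544A, was at 235 ± 51.6 CPM in WT and 215 ± 21.7 in KO libraries and differed by -0.13 (adjusted p = 0.568). The table also lists 3 genes of the MIR548 family (MIR548U, MIR548L and MIR548D1), which are not those whose hairpins are shown above. Each had at most 10 counts in a library, and none was tested. Total RNA libraries do not measure mature microRNAs.

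Differences relative to the other repeats were also estimated by fitting the 1052 tested repeat rows alone, a choice made after seeing the data. The median standard error of a member was then 0.08 in place of 0.17 on the log2 scale, and the median difference became -0.01. One member fell and 1 rose, 2 of 223, where 6.08% of all repeat rows were called. The KO and WT libraries did not overlap for 9 members that were lower and 4 that were higher, against 10.6% of all repeat rows in either direction. Both counts are smaller shares of the members than of repeats in general.

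The one that fell was MER63D, a hAT-Blackjack element singled out after its values were seen. Per 1e+06 repeat counts it was at 160, 162 and 189 in WT clone 1 and 171 and 186 in WT clone 7, against 139, 142, 143 and 118 in the KO libraries. Each KO library was below each WT library (log2 difference -0.36, SE 0.08, edgeR adjusted p = 0.0154 over the repeat rows). On the scale of all rows it ran from 14.6 to 23.4 CPM in WT and from 11.8 to 16.3 CPM in KO, which overlap, and missed the threshold (-0.45, SE 0.15, adjusted p = 0.0534). The authors' deposited table, on all rows, gave it as lower (-0.45, adjusted p = 0.0201).

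Ricksha_c, a MULE-MuDR element also chosen after its values were seen, was the one that rose. Per 1e+06 repeat counts it was at 232, 204 and 203 in WT clone 1 and 252 and 268 in WT clone 7, against 308, 292, 288 and 272 in the KO libraries. The KO libraries were all higher, but the lowest of them was only just above WT clone 7 replicate 2 (log2 difference 0.33, SE 0.08, edgeR adjusted p = 0.0242 over the repeat rows). On the scale of all rows the WT libraries were at 33.9, 21.3, 21.8, 21.5 and 21.5 CPM and the KO libraries at 26.3, 26.2, 32.8 and 27.5 CPM. Only WT clone 1 replicate 1 overlapped the KO libraries there, and the difference of 0.24 missed the threshold (adjusted p = 0.257). Without that library Ricksha_c was the 1 member called higher (0.39, adjusted p = 0.00359).

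**Figure D3:**
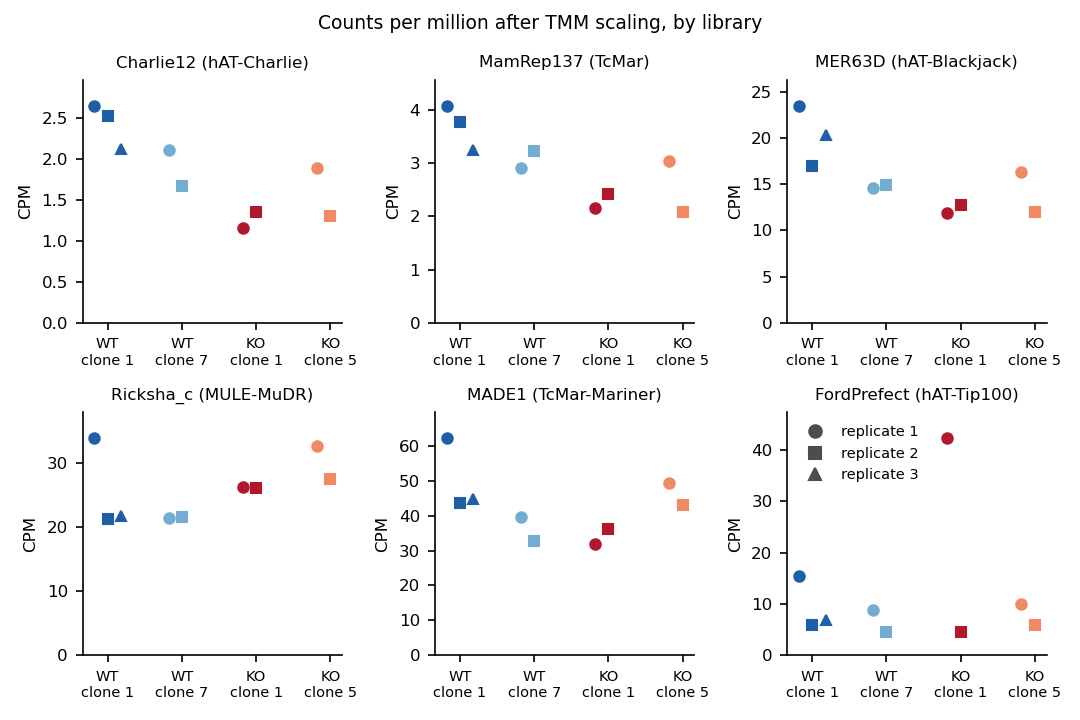
CPM after TMM scaling of 6 subfamilies in each library, by clone (horizontal axis) and replicate (symbol), with vertical axes from 0. Charlie12, MamRep137 and MER63D are lower in KO clone 1 than in any WT library, Ricksha_c is at 26.2 CPM or more in the KO libraries and in WT clone 1 replicate 1, MADE1 follows the class, and FordPrefect is high only in KO clone 1 replicate 1 at 42.3 CPM.

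The clones of a genotype were then compared, because 2 clones a genotype give the only view of how far clones differ without a change in MATR3. In WT clone 7 against WT clone 1, 221 of 223 members were lower, with a median of -0.48, and in KO clone 5 against KO clone 1 the median was 0.29. Both medians are farther from 0 than that between genotypes. WT clone 7 had 2 called members, MER45A of hAT-Tip100 (log2 difference -0.64, edgeR adjusted p = 0.0436) and MER102c of hAT-Charlie (-0.55, adjusted p = 0.0497), where 0.722% of all rows were called. MER45A was at 43.5, 34.4 and 36.4 CPM in WT clone 1 and 24.7 and 24.1 in WT clone 7. Between the KO clones no member was called, against 0.653% of all rows, and 32 of 223 had an unadjusted p below 0.05, as did 9.35% of all rows. Between the WT clones 165 of 223 members passed that unadjusted limit, as did 19.7% of all rows.

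Against the WT clones, the KO clones went in opposite directions on the scale of all rows. With repeats fitted alone, the medians were -0.013 for KO clone 1 and -0.011 for KO clone 5. The replicates of KO clone 5 also differed, with median deviations from the mean of the libraries of 0.231 and -0.047 in log2 CPM. On the scale of all rows the KO clone 1 median was -0.19 and 8 members were lower (3.59% of those tested), where 9.86% of all rows were. The 3 with the smallest p were MER135 (log2 difference -0.64, edgeR adjusted p = 0.0273), MER130 (-0.87, adjusted p = 0.0305) and hAT-N1_Mam (-0.47, adjusted p = 0.0374). MER135 was at 4.47 and 4.79 CPM in KO clone 1, below the WT libraries (6.36 to 9.99), while KO clone 5 at 6.73 and 5.78 reached into them. The other 5, named here after their values were seen, were Eulor9C, MER63C, MER63D, Charlie12 and Charlie22a. In KO clone 5 the median was 0.11 and 2 members of hAT-Tip100 were higher, MER45B (0.54, adjusted p = 0.0360) and ORSL-2b (0.42, adjusted p = 0.0490), where 9.13% of all rows were. KO clone 5 against KO clone 1, the direct test between them, gave no call for any of these.

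Several of these counts depended on WT clone 1 replicate 1. Without it 35 members were higher in KO clone 5 than in WT (13.5% of all rows were), and 0 were lower (13.1% of all rows were), the rises holding 14 of 73 hAT-Charlie, 7 of 35 hAT-Tip100 and 7 of 61 TcMar-Tigger members. WT clone 7 then had 25 members below WT clone 1 (4% of all rows were lower) and 0 above it (1.47% were higher). KO clone 5 then had 7 members above KO clone 1 (1.88% of all rows were higher) and 0 below it (0.926% were lower). The median between the KO clones was 0.293 with and without that WT library, so the size of the difference did not change. All clone groups share 1 estimate of the spread, which the left-out library also enters. Against the WT libraries KO clone 1 had 8 lower members, as many as with it (12.6% of all rows were lower), and 1 higher (12.4% were higher). The medians without it were -0.10 for KO clone 1 and 0.19 for KO clone 5 against WT, and -0.32 between the WT clones.

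**Figure D4:**
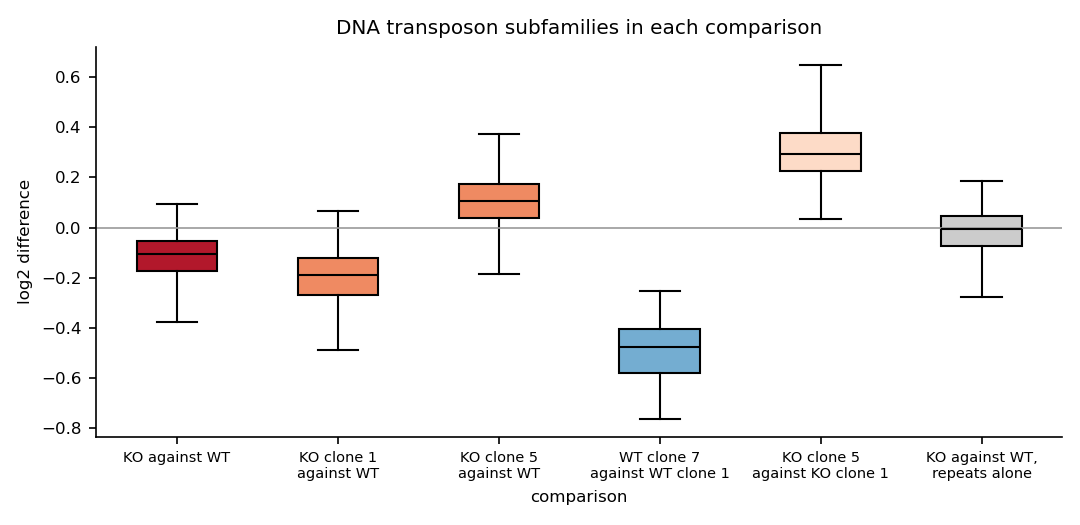
Boxes show the quartiles and median, and whiskers the 5th to 95th percentile, of the log2 differences of 223 DNA transposon subfamilies in 6 comparisons. The median is -0.11 for KO against WT, -0.19 and 0.11 for the KO clones, -0.48 between WT clones, 0.29 between KO clones, and -0.01 for KO against WT among repeats alone.

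FordPrefect, a hAT-Tip100 element chosen after its values were seen, departed from its class in KO clone 1 replicate 1. It was at 15.4, 5.88 and 6.79 CPM in WT clone 1, 8.76 and 4.53 in WT clone 7, 42.3 and 4.41 in KO clone 1 and 10.0 and 5.84 in KO clone 5. Replicate 1 was the highest library of every clone, and KO clone 1 replicate 1 was far above all others. Its log2 difference was 0.90 (SE 0.59, edgeR adjusted p = 0.319), and -0.30 without that library (adjusted p = 0.673). Its correlation with the rest of the class was 0.209 over 9 libraries, against the median of 0.947. That value includes KO clone 1 replicate 1, where the median deviation of the class was -0.204 in log2 CPM. The correlation with the class was not calculated without that library, so 0.209 does not describe the other libraries. The mitochondrial 12S ribosomal RNA MT-RNR1 was high in the same libraries, with 59.6, 0.622 and 20.2 CPM in WT clone 1, 31.2 and 3.60 in WT clone 7, 142 and 1.53 in KO clone 1 and 31.6 and 4.04 in KO clone 5. MIR3648-1, which lies in the ribosomal DNA unit, was at 12.6 CPM in KO clone 1 replicate 1 and between 0.109 and 3.60 CPM in the other libraries. These rows were chosen after their values were seen, and the part of ribosomal RNA in the FordPrefect value was not tested. When rows were ranked by correlation with FordPrefect over 9 libraries, the mitochondrial ribosomal RNA MT-RNR2 came first (0.905). MIR3648-1 had rank 10 (0.864), and MT-RNR1 was not among the first 15. Most of the first 15 were other genes, such as C4orf36 (0.897) and NDUFA1 (0.875). The related row FordPrefect_a differed by -0.35 (adjusted p = 0.287).

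Host genes that arose from DNA transposases were examined last, since they are the members' nearest relatives among genes. Of 35 genes listed, 31 were in the table and 30 were tested, 7 of which rose and 6 fell. The calls, 13 of 30, are a larger share than the 23.2% of all tested genes and 22.1% of all rows, and the list was not tested as a set. The list's median log2 difference was -0.00. The counts of rises became 4 with replicate number as a block and 3 without KO clone 5 replicate 1.

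From the Tc1/mariner group, SETMAR rose (14.7 ± 0.857 CPM in WT, 18.0 ± 1.03 in KO, log2 difference 0.29, SE 0.07, edgeR adjusted p = 0.0138). Its libraries were at 13.9 to 15.8 CPM in WT and 16.7 to 19.2 CPM in KO, with no overlap, whereas HSMAR1 was not called. CENPB, the protein that binds a motif of centromeric alpha satellite, rose by 0.23 (adjusted p = 0.0472), JRKL by 0.36 (adjusted p = 0.0141) and TIGD3 by 0.60 (adjusted p = 0.0270). With the replicate block CENPB (adjusted p = 0.0800) and TIGD3 (adjusted p = 0.0565) were not called, and the CENPB libraries overlapped between genotypes. POGZ (chr1:151402724-151459494), a chromatin regulator with a pogo-type transposase domain, fell from 120 ± 7.70 to 96.1 ± 2.39 CPM (log2 difference -0.33, SE 0.06, adjusted p = 0.00165). POGK, which joins such a domain to a KRAB domain, fell as well (-0.31, adjusted p = 0.0192).

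From the hAT group, GTF2IRD2B rose from 3.68 ± 0.430 to 6.71 ± 0.418 CPM (log2 difference 0.85, edgeR adjusted p = 0.000253). Its near-identical neighbour GTF2IRD2 rose by 0.93 (adjusted p = 0.0172) from 0.697 CPM, and reads may have been split between the copies, so both are uncertain. ZBED8 rose by 0.36 (adjusted p = 0.0253), a call lost with the replicate block (adjusted p = 0.0673), and ZBED3 fell (-0.45, adjusted p = 0.0135). ZBED6, known in pigs as a repressor of IGF2, fell (-0.37, adjusted p = 0.0152), but it lies within ZC3H11A, whose symbol the deposited table gives to this row, so reads of the pair cannot be told apart.

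From the piggyBac group, PGBD5 (chr1:230314490-230426332) had the largest difference among the tested genes of the list. It was at 5.61, 5.12 and 4.64 CPM in WT clone 1, 4.56 and 3.47 in WT clone 7, 1.51 and 1.18 in KO clone 1 and 2.18 and 2.18 in KO clone 5. All KO libraries were below all WT libraries (log2 difference -1.43, SE 0.21, edgeR adjusted p = 0.000453). PGBD1 fell less (-0.34, adjusted p = 0.0181), while the 5 tested PiggyBac subfamilies gave no call. THAP9, kin of the P-element transposase of flies, was at 8.67 ± 0.775 and 9.40 ± 1.34 CPM (log2 difference 0.12, 95% interval -0.13 to 0.37, adjusted p = 0.514). Of the falls, POGZ, POGK (chr1:166839447-166856359), ZBED6 (chr1:203795623-203854124) and PGBD5 lie on chromosome 1, and ZBED3 and PGBD1 on chromosomes 5 and 6. PGBD2, also on chromosome 1, had a log2 difference of -0.005 (edgeR adjusted p = 0.987). Any part of chromosome position in these falls was not tested.

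**Figure D5:**
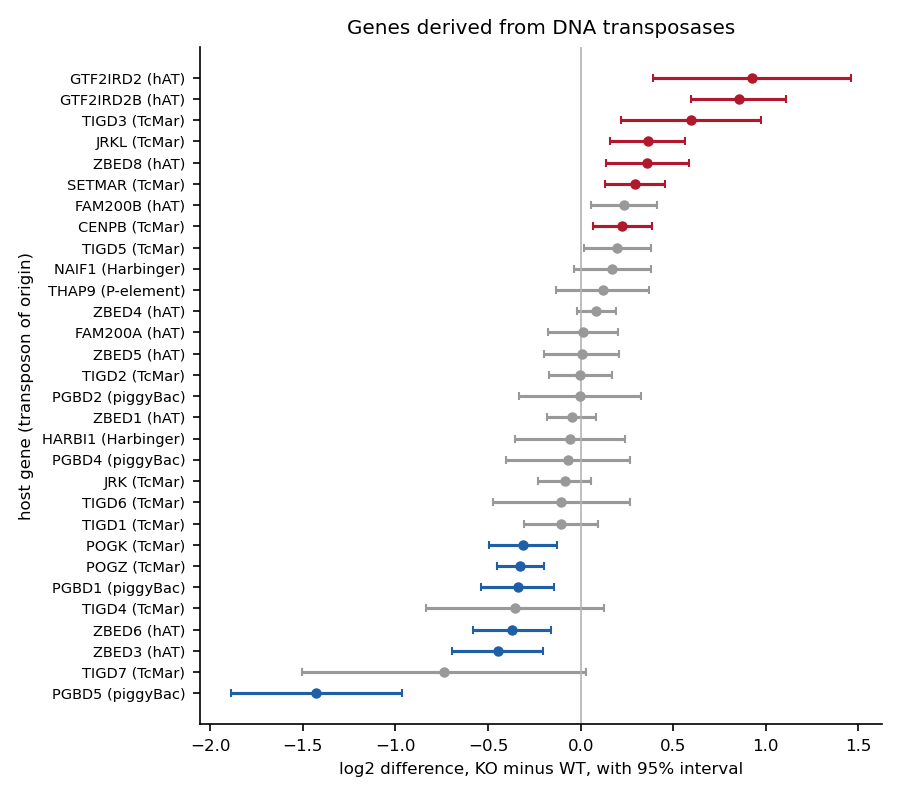
Log2 difference between KO and WT libraries of 30 host genes derived from DNA transposases, with 95% intervals and the transposon group of origin in brackets. Red points passed an adjusted p below 0.05 as higher (7 genes) and blue ones as lower (6 genes). PGBD5 at -1.43 lies farthest from 0.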

How the data were processed

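RNA was sequenced after ribosomal depletion with a directional kit, per the labels' protocols. The submitters' processing notes name hg38, and according to them STAR 2.5.2a, DESeq and DESeq2 1.22.2 were used, and the name of the deposited table gives TEtoolkit as the counter. The sources used here do not give the strand setting, the annotation release or the use of molecular identifiers. The authors deposited raw counts per gene and repeat subfamily. The authors' deposited table of log2 differences and adjusted p-values was used only as an alternative.

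All rows together were filtered with filterByExpr by genotype (minimum count 10), scaled by TMM and tested by edgeR's quasi-likelihood test with Benjamini-Hochberg adjustment over all tested rows (threshold 0.05). CPM are per 1e+06 counts after this scaling, values after ± are SD, and SE and 95% intervals come from the edgeR fit. Clones were compared in a fit with 1 term per clone. Deviations and correlations used log2(CPM + 0.5). The procedure was tested on simulated data. Counts there were drawn independently for each row, without the shared movement of repeats between libraries seen here, so its effect was not tested. Members, lists and rules were chosen with earlier results of these data known. Named members were the 2 most abundant of each family, those of families with 1 or 2 tested rows, called members (up to 10 each way between genotypes, 3 each way between clones), MADE1 and HSMAR1; other members were chosen after their values were seen. Deviations from clone means went together between libraries that share a number, over all rows (correlations 0.111 to 0.490 in 12 comparisons, which mirror each other in clones of 2), so a replicate block was run. Over the members alone the correlations were weaker, from -0.0359 to 0.297. Software was R 4.3.3, edgeR 4.0.16, DESeq2 1.42.0, Python 3.11.15, RNAfold 2.7.2 and matplotlib 3.10.9. Gene positions and exons came from GENCODE release 44.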

Additional observations from a re-analysis of the deposited data

Results flagged for a closer look

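Among 35 named members, 6 of 70 groups held a library far from the others of its genotype, where chance flags about 1 group in 20. The groups share the same libraries and the members move together, so that rate does not gauge the count. In WT, clone 1 replicate 1 was the high library for MER135 (9.99 CPM), MER130 (4.44 CPM), MamRep38 (32.6 CPM) and Ricksha_c (33.9 CPM). It was also the library apart in all 14 of the 223 tested members that had one in WT. In KO, clone 5 replicate 1 was high for Looper (30.1 CPM) and clone 1 replicate 1 for FordPrefect (42.3 CPM).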

How the results depend on the processing

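The 2 falls among DNA transposon subfamilies numbered 1 with no scaling factors, with TMM factors from genes only and with no filter on low counts. They numbered 0 with library sizes and TMM factors from repeats only, with clones summed, with replicate number as a block (replicate block), and without WT clone 1 or KO clone 1. They numbered 1 without KO clone 5 and with repeats fitted alone, and 8 without WT clone 7. Leaving out 1 library gave 0 to 5. Rises, 0 in the main fit, were 0 to 1 on leaving out 1 library, 5 without WT clone 1 and 1 with repeats fitted alone. DESeq2's Wald test gave 3 falls. The median of -0.11 became 0.20 without WT clone 1 and ran from -0.21 to 0.04 on leaving out 1 library. The difference in share, -0.06 percentage points, ran from -0.11 to 0.03. Host genes with 7 rises and 6 falls had 2 and 1 with factors from repeats only, 1 and 2 with clones summed, 3 and 2 without KO clone 1 and 2 and 2 without KO clone 5. Rises were 1 without WT clone 1, 4 with the replicate block, and 3 to 7 on leaving out 1 library. Among clones, factors from repeats only gave 0 falls in KO clone 1, 0 rises in KO clone 5 and 0 falls in WT clone 7, and medians of 0.039 between WT clones and -0.00470 between KO clones. Without WT clone 1 replicate 1 these gave 1 rise in KO clone 1, 35 rises in KO clone 5, 25 falls in WT clone 7 and 7 rises between KO clones. The cause was not tested. Of 875 alternatives of named members, 728 kept direction and call, 33 lost a call, 16 gained one, 98 changed sign without a call in either fit, and 0 reversed a call. The low counts of rows such as Charlie12, near 2 CPM, limit what these libraries can show.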
